A study of Mus musculus with 4 samples.

Results

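The transcripts described here are those of 10 genes for protein folding in the endoplasmic reticulum (ER) and for the response to unfolded protein there, out of 25793 gene symbols counted in mouse liver by RNA sequencing. They were taken by symbol: the chaperone genes Hspa5, Hsp90b1, Calr and Canx, the disulfide isomerase genes Pdia4 and Pdia6, the cochaperone gene Dnajb9, and the transcription factor genes Xbp1, Atf6 and Creb3l3. All 10 were listed in every table, and all 10 were among the 14468 genes with enough counts to be tested. Of the 4 libraries, 2 were labelled liver tumours (tumours 1 and 2) of mice with the genotype beta-2SP+/- ; SMAD3+/-, heterozygous for Smad3, whose product carries TGF-beta signals to the nucleus, and for the spectrin that helps SMAD3 reach its receptor. Another was labelled normal liver of that same double heterozygous genotype, and the last was labelled wild type normal liver. The labels used here give no age or treatment and do not say whether the tumours came from separate animals. The p-values of the main tests rest only on the spread between these 2 tumours, shared in part over genes, and on none among normal livers. Library depth ranged from 11049931 gene counts in tumour 1 to 18448621 in the table labelled wild type.

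The submitters' short descriptions name T cells for the tumour libraries and hepatocytes for the normal ones, which goes beyond the tissue labels. That of tumour 1 holds the word Elf and that of tumour 2 the word Smad, although the genotype label is the same for both. The tests take the tumours as replicates of 1 group, as labelled. Of 8 T cell marker genes, 6 had 0 counts in both tumours, among them the T cell receptor subunit gene Cd3e. Levels are given in CPM (counts as a share of a fixed library total, scaled by TMM over the 4 tables). Hepatocyte markers, 10 genes led in normal liver by the albumin gene Alb, summed to 144 and 139 CPM in tumours 1 and 2. Their sums were 192446 and 176207 CPM in the normal tables labelled double heterozygous and wild type. Most of the tumour sums was Hnf4a, a transcription factor gene, at 133 and 91.8 CPM against 1174 and 1029 CPM. Alb was at 7.03 and 37.2 CPM in the tumours. The 8 bile duct markers, led by Spp1, summed to 2443 and 1945 CPM against 49.3 and 43.7 CPM. Of these, 6 lay higher in both tumours than in both normal tables. The other 2 were above normal in tumour 1 and below it in tumour 2. Epcam was at 356 and 4 counts in tumours 1 and 2 against 46 and 48, and Cftr at 466 and 7 against 15 and 16. The tables of normal liver were not independent: among 2632 genes averaging 1 to 5 counts, the same count stood in both tables for 56.8%, where sampling of separate libraries would give 22.0%. Between the tumours it was 13.1% of 2299 such genes. The mean of both normal tables was therefore used as 1 normal library in the main tests.

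The ER is where secreted and membrane proteins fold, and the hepatocyte, which secretes most plasma proteins, is rich in it. When unfolded protein builds up, the ER-membrane sensors IRE1 (gene Ern1), PERK (Eif2ak3) and ATF6 release the chaperone BiP, the product of Hspa5. IRE1 splices the Xbp1 transcript into its active form, ATF6 is cleaved by Golgi proteases into a transcription factor, and both raise transcription of chaperones and of the degradation machinery. CREB3L3, also called CREBH, is cleaved in the same way as ATF6 but is made chiefly in liver and gut, where it acts on lipid, glucose and acute phase genes. Gene counts show neither the splicing of Xbp1 nor the cleavage of ATF6 and CREB3L3.

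A sequence through which ATF6 and XBP1 are known to act is the ER stress response element (ERSE). It is shown here because 5 of the chaperone and isomerase genes held an exact match, as did 4 genes of the other ER lists, named further below. The element was already known from this response, so its presence in these genes is a description and not a test. It was searched as CCAAT and CCACG with any 9 bases between them, on both strands, in the 250 bases before and 50 bases after each start in the RefSeq promoter table (build GRCm38.p6, another build than that of the counts), which held 9 of the 10 genes. Hspa5, Calr, Canx and Pdia6 each held 1 exact match and Hsp90b1 held 2, which do not overlap. Of all 32851 promoters in the table, 0.119% held a match. The matches are given below in capitals, 5′ to 3′ on the gene's strand, in the 250 bases upstream of the start for Hspa5 and with 30 bases on each side for the others.
Hspa5: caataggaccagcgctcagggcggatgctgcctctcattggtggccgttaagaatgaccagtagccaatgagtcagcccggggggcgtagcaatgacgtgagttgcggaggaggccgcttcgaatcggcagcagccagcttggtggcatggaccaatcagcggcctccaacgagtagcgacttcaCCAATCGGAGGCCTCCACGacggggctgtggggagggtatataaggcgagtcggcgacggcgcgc
Hsp90b1, farther match: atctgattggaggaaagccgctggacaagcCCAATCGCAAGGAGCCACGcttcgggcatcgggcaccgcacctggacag
Hsp90b1, nearer match: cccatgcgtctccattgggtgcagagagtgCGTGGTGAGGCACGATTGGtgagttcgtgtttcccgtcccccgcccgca
Calr: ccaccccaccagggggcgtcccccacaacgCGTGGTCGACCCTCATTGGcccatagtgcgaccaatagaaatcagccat
Canx: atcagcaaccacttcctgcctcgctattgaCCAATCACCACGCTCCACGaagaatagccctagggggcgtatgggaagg
Pdia6: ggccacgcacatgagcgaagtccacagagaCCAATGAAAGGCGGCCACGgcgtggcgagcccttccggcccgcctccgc
The stretches lie at chr2:34771840-34772089 on the + strand, chr10:86705608-86705686 and chr10:86705503-86705581 on the - strand, chr8:84847045-84847123 on the - strand, chr11:50325770-50325848 on the - strand and chr12:17266461-17266539 on the + strand. In Hspa5 the match began 65 bases before the start. Calr and the nearer match of Hsp90b1 carried the element on the opposite strand, so their capitals read CGTGG first. Pdia4 came within 1 mismatch of the element, Creb3l3 and Dnajb9 within 2, and Xbp1 within 3. A match is a description of these letters and not of binding. No other element was searched, so a gene without a match is not shown to lie outside the reach of ATF6 or XBP1.

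Of the chaperones, Hspa5 encodes BiP, the ER member of the HSP70 family. It was at 10190 and 18398 counts in tumours 1 and 2 and at 23452 and 23910 counts in the normal tables labelled double heterozygous and wild type, or 583, 848, 2430 and 2043 CPM. The tumours thus lay below both normal tables, at 715 ± 188 CPM (SD, n = 2), and the log2 fold change of -1.63 (SE 0.73) did not pass edgeR's quasi-likelihood test (adjusted p = 0.232). Hsp90b1 encodes GRP94, the HSP90 of the ER, and was at 495 and 730 CPM in the tumours and 2188 and 1887 CPM in the normal tables. Its log2 fold change was -1.73 (SE 0.72, edgeR adjusted p = 0.211), and 12.3% of its 31-base words also occur in other genes, so its counts are less certain than those of Hspa5.

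Calr and Canx encode calreticulin and calnexin, lectins that hold newly glycosylated proteins until they fold, the former soluble and the latter anchored in the membrane. Calr stood at 458 and 559 CPM in the tumours and at 1418 and 1257 CPM in the normal tables. Canx stood at 767 and 818 CPM against 1469 and 1259 CPM, the smallest gap between tumours and normal liver among the 10 genes. Neither passed the test: Calr had a log2 fold change of -1.39 (SE 0.67, edgeR adjusted p = 0.256) and Canx of -0.77 (SE 0.69, adjusted p = 0.50). As a bulk measurement these values cannot tell fewer cells of a type from less RNA per cell. The low hepatocyte marker sums in the same tumours moved with these differences, and their part in the differences was not tested.

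Pdia4 and Pdia6 encode disulfide isomerases that form and rearrange disulfide bonds with BiP. Pdia4 was at 183 and 226 CPM in the tumours and 665 and 536 CPM in the normal tables. Pdia6 was at 1352 counts in tumour 1 and 5250 in tumour 2, or 77.3 and 242 CPM, against 666 and 575 CPM. Tumour 1 was therefore the lower of the pair for Pdia6 by more than for any other gene of the group with enough counts to compare. Neither gene passed the test against normal liver (log2 fold changes -1.54, SE 0.59, and -1.95, SE 0.86, edgeR adjusted p = 0.189 and 0.227).

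Dnajb9 encodes ERdj4, a J-domain partner of BiP that also holds IRE1 inactive. It had 279 and 259 counts in tumours 1 and 2 and 2098 and 2280 in the normal tables, or 15.95 and 11.94 CPM against 217 and 195 CPM. It fell 14.7-fold (log2 fold change -3.88, SE 0.55, edgeR adjusted p = 0.0357). It was the 1 gene of the 10 called lower, where 5.19% of all genes tested were called lower, and 0 were called higher, where 2.23% were (0 at an unadjusted p under 0.05, and 0 by DESeq2). At an unadjusted p under 0.05, 3 of the 10 were lower (Xbp1, Creb3l3 and Dnajb9), beside 15.5% of all genes. DESeq2 called the same 3 lower, beside 1743 of all 14468 genes. Dnajb9 shares 10.8% of its 31-base words with other genes. Its call was lost without scaling beyond library size (adjusted p = 0.0653), and its adjusted p lay at 0.0336 and 0.0353 against the normal tables labelled wild type and double heterozygous alone.

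The transcription factors differed widely among themselves. Xbp1 was nearly level between the tumours, at 1387 and 1746 counts or 79.3 and 80.5 CPM, against 381 and 346 CPM in the normal tables. Its log2 fold change of -2.18 (SE 0.53) missed the threshold (edgeR adjusted p = 0.0906), while DESeq2 called it lower (adjusted p = 0.0100). Atf6 was at 116 and 83.3 CPM against 287 and 252 CPM (log2 fold change -1.42, SE 0.56, edgeR adjusted p = 0.196).

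Of the 10 genes Creb3l3 had the widest gap. It was at 86 counts in tumour 1, 4 in tumour 2, and 6509 and 7498 in the double heterozygous and wild type normal tables, or 4.92 and 0.184 CPM against 675 and 641 CPM. Both tumours thus held few of its transcripts, tumour 2 fewest. The fitted log2 fold change was -8.00 (SE 1.90, edgeR adjusted p = 0.0859), a value that missed the threshold with the largest SE of the 10 genes. DESeq2 called it lower (adjusted p = 2.7142e-07). Taken alone against normal liver, with no test possible, tumour 1 gave a log2 ratio of -6.95 and tumour 2 of -11.02.

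**Figure D1:**
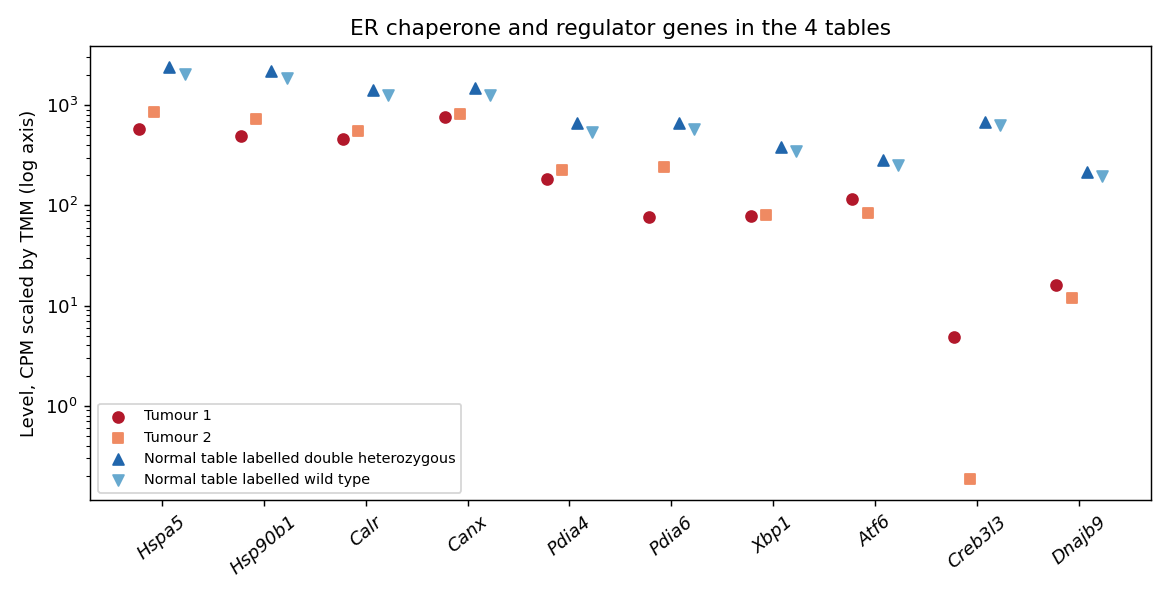
Level of each of the 10 genes in each of the 4 tables, in CPM scaled by TMM, on a log axis; each point is 1 table. Both tumours lie below both normal tables for all 10 genes, with Canx closest (767 and 818 CPM against 1469 and 1259) and Creb3l3 farthest apart (4.92 and 0.184 CPM against 675 and 641).

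On the TMM scale both tumours were below both normal tables for all 10 genes, an arrangement found in 37.5% of all genes tested. The median log2 fold change of the 10 genes was -1.68, beside 0.19 for all genes tested. These levels depend on the scaling. The 10 most abundant genes held 7.32% and 6.03% of gene counts in tumours 1 and 2 and 20.7% and 19.7% in the normal tables. As a plain share of gene counts the 10 genes together made up 0.440% and 0.587% in the tumours, and 0.629% and 0.570% in the normal tables labelled double heterozygous and wild type, so that on this scale tumour 2 lay between the normal tables. Without scaling beyond library size the median of all genes moved by 1.37 on the log2 scale, to 1.56. The log2 fold changes were then -0.26 for Hspa5, -0.35 for Hsp90b1, -0.01 for Calr and 0.60 for Canx, whose direction turned, and Dnajb9 and Creb3l3 remained far below 0, at -2.51 and -6.66. The calls over all genes, 322 higher and 751 lower with TMM, became 635 higher and 472 lower.

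A scaling factor per library shifts all genes by nearly the same amount, so the distance of a gene from the median of all genes is fixed by construction and says nothing of stability. Over TMM, RLE, upper quartile and library size scaling, Hspa5 lay between -1.83 and -1.82 relative to that median, Canx between -0.97 and -0.96, Xbp1 at -2.37, Dnajb9 between -4.07 and -4.06, and Creb3l3 between -8.22 and -8.17.

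**Figure D2:**
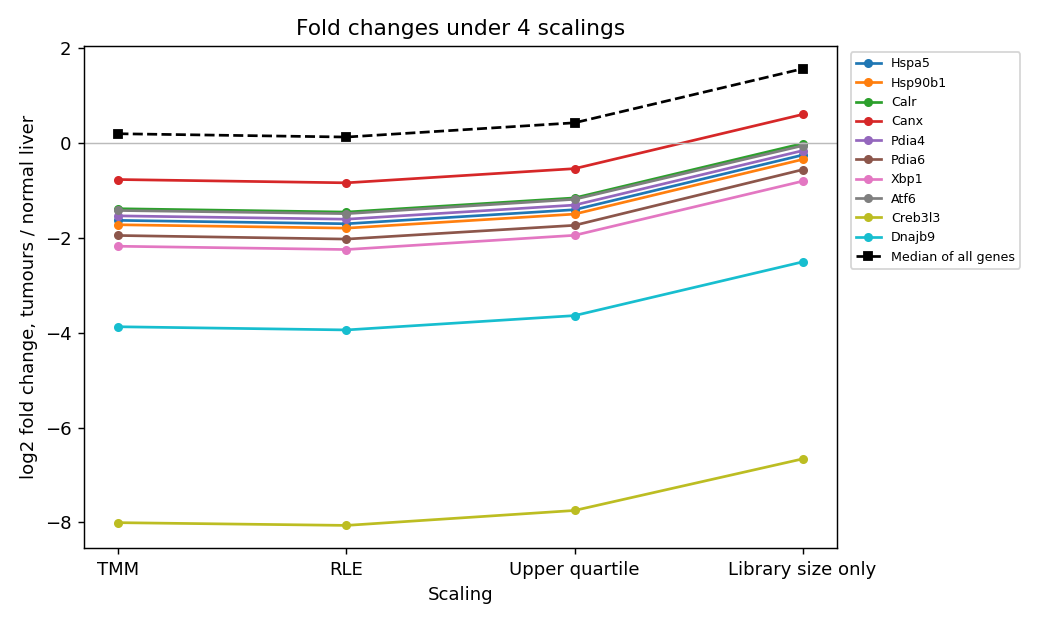
Fitted log2 fold change (tumours over normal liver) of each of the 10 genes under 4 scalings, with the median of all genes tested as a dashed line. Every line rises by a similar amount at library size scaling, where Canx crosses 0 (0.60) and the median of all genes reaches 1.56, and the distance of each gene from that median stays nearly constant, as it must when each library has 1 factor.

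Ratios between genes of the same table need no scaling. For every 100 counts of Hspa5 there were 84.9 and 86.0 counts of Hsp90b1 in tumours 1 and 2 and 90.0 and 92.4 in the normal tables labelled double heterozygous and wild type. Pdia4 was at 31.4 and 26.7 counts per 100 of Hspa5 against 27.4 and 26.2. These chaperone and isomerase genes therefore kept close to the proportion they had in normal liver. Calr was somewhat higher relative to Hspa5 in the tumours, at 78.6 and 65.8 against 58.4 and 61.5, and Canx more so, at 132 and 96.4 against 60.5 and 61.6. Dnajb9 was lower, at 2.74 and 1.41 against 8.95 and 9.54, as were Creb3l3, at 0.844 and 0.0217 against 27.8 and 31.4, and, by less, Xbp1, at 13.6 and 9.49 against 15.7 and 17.0. Pdia6 and Atf6 split the tumours: Pdia6 was at 13.3 in tumour 1 and 28.5 in tumour 2 (27.4 and 28.1 in normal liver), and Atf6 at 19.9 and 9.82 (11.8 and 12.3 in normal liver). No test was made of these ratios.

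**Figure D3:**
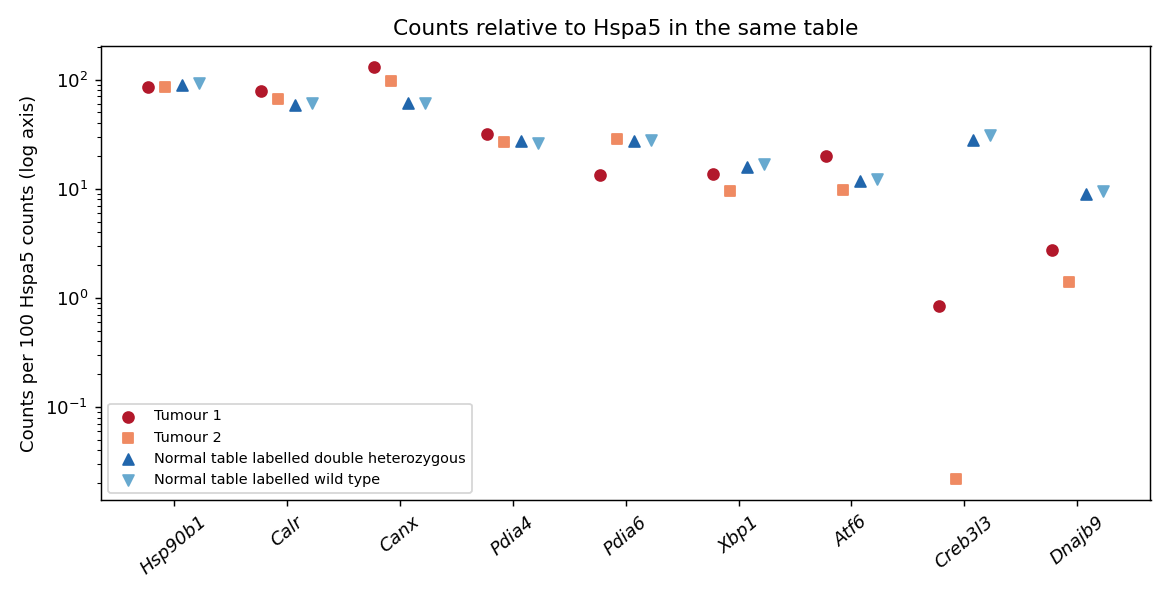
Counts of 9 genes per 100 Hspa5 counts of the same table, on a log axis; each point is 1 table. Hsp90b1 and Pdia4 are close in all 4 tables, Canx is higher in both tumours (132 and 96.4 against 60.5 and 61.6), and Dnajb9 and Creb3l3 are lower in both.

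Between genes, levels were compared per kilobase of exon (union of the exons in GENCODE M21, an annotation of another build, so the order is approximate). Both normal tables gave the same order. In the table labelled wild type Hspa5 led at 483 CPM per kilobase, followed by Hsp90b1 (468), Calr (437), Canx (268), Pdia4 (223), Creb3l3 (212), Pdia6 (154), Xbp1 (107), Dnajb9 (76.4) and Atf6 (27.3). In tumour 1 the order began with Canx (163), Calr (159), Hspa5 (138) and Hsp90b1 (123 CPM per kilobase). In tumour 2 it began with Hspa5 (201), Calr (194), Hsp90b1 (181) and Canx (174). From tumour 1 to tumour 2 Hspa5, Hsp90b1 and Calr differed by more than neighbours among these 4 genes did in either tumour, and Canx by less than some. Creb3l3 moved from sixth in both normal tables to last in both tumours, at 1.63 and 0.0612 CPM per kilobase.

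The tumours were compared with each other to see how far the genes varied within 1 labelled group, with 1 library on each side and therefore no test. Over 2-fold differences were seen for 1 of the 9 genes above 10 CPM in either tumour, Pdia6 (log2 ratio of tumour 1 to tumour 2 -1.63), where 28.8% of all 10265 genes compared differed so far. Hspa5 (-0.52) and Hsp90b1 (-0.54) were lower in tumour 1, Atf6 (0.49) and Dnajb9 (0.43) higher, and Xbp1 was level (-0.00). Creb3l3 was under 10 CPM in both, and at a minimum of 1 CPM its log2 ratio was 4.15. Fibroblast and stellate cell markers, 8 genes, summed to 4.17 CPM in tumour 1 and 354 CPM in tumour 2, and their part in these differences was not tested.

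The genotype was compared without a tumour in the normal tables. None of the 10 genes differed over 2-fold, against 4.56% of all 7065 genes compared. Log2 ratios of the table labelled double heterozygous to that labelled wild type ran from -0.01 for Creb3l3 to 0.22 for Pdia4. Since these tables share counts beyond sampling, their closeness says little about the genotype.

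The other genes of the pathway were taken from 7 lists of 141 genes in all, of which 136 were tested. Of these, 1 rose and 5 fell, which is no larger a share than the 2.23% and 5.19% of all genes called higher and lower. The median log2 fold change was -1.06, beside 0.19 for all genes tested. Before adjustment, 7 passed p under 0.05 as higher and 40 as lower, and DESeq2 called 4 higher and 31 lower. The same counts over all 14468 genes were 1810 and 2237 before adjustment, and 1666 and 1743 by DESeq2.

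Other ER chaperones numbered 19 tested genes with a median of -1.34. At an unadjusted p under 0.05, 2 lay higher and 8 lower, DESeq2 called 1 higher and 4 lower, and edgeR after adjustment called 1 higher and 0 lower. The 1 that rose was Serpinh1, which encodes the collagen chaperone HSP47: it had 4742 and 5013 counts in tumours 1 and 2 against 91 and 94 in the normal tables (log2 fold change 4.87, SE 0.74, edgeR adjusted p = 0.0395). HSP47 serves collagen rather than plasma proteins, and the collagen gene Col1a1, named after its values were seen, was high in tumour 2 alone, at 30 and 3757 counts against 11 and 18. Hyou1, an ER chaperone that exchanges nucleotide on BiP, named here after its values were seen, was at 2713 and 3990 counts against 9117 and 9646 (log2 fold change -2.37, SE 0.61, edgeR adjusted p = 0.0967).

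Among 16 disulfide enzymes 2 fell and 0 rose (0 at an unadjusted p under 0.05, and 0 by DESeq2), with a median of -1.38. Before adjustment 6 were lower at p under 0.05, beside 15.5% of all genes. DESeq2 called 6 lower, beside 1743 of all 14468 genes. Ero1lb, the ER oxidase that reoxidises disulfide isomerases, was at 160 and 196 counts in the tumours and 1897 and 2457 in the normal tables (log2 fold change -4.48, SE 0.53, edgeR adjusted p = 0.0265). It shares 11.6% of its 31-base words with other genes. Qsox1, a secreted sulfhydryl oxidase, was at 1844 and 1879 counts against 13484 and 14245 (-3.76, SE 0.64, adjusted p = 0.0482). That call was lost with upper quartile scaling (adjusted p = 0.0524) and without scaling (0.0726).

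ER-associated degradation, which returns misfolded proteins to the cytosol, had the lowest median of the 7 lists, -1.91 over 23 genes. The 1 gene that fell was Syvn1, the ubiquitin ligase HRD1, at 506 and 462 counts in the tumours against 2734 and 2922 (log2 fold change -3.40, SE 0.55, edgeR adjusted p = 0.0439, and 0.0811 without scaling), and 0 rose (0 at an unadjusted p under 0.05, and 0 by DESeq2). Before adjustment 12 of the 23 were lower at p under 0.05, beside 15.5% of all genes. DESeq2 called 10 lower, beside 1743 of all 14468 genes. ER-to-Golgi transport (20 genes, median -1.26) had 2 that fell and 0 that rose. Before adjustment 1 was higher and 7 were lower at p under 0.05, with the same counts by DESeq2. The 2 that fell by edgeR were Sec16b and the COPII coat gene Sec24a. Sec16b, which organises ER exit sites, was at 16 and 55 counts against 1893 and 2593 (-6.92, SE 0.85, edgeR adjusted p = 0.0278). Sec24a was at 601 and 476 counts against 3684 and 4147 (-3.70, SE 0.60, adjusted p = 0.0439, and 0.0741 without scaling).

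No gene was called by edgeR in the remaining 3 lists. The translocon list (22 genes, median -0.70) had 3 lower and 0 higher at an unadjusted p under 0.05, and the same counts by DESeq2. Its most abundant genes were Ssr3 (log2 fold change -0.59), Sec61a1 (-1.29), the channel itself, and Tram1 (-1.44). N-glycosylation (18 genes, median -0.94) had 2 higher and 1 lower at that level, and 1 and 0 by DESeq2, with Ganab, Rpn2 and Uggt1 at -0.99, -0.98 and -1.28. Without scaling Ssr3, Sec61a1, Ganab, Rpn2 and Uggt1 were above 0.

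The other regulators of the response, 18 genes tested, had a median of -0.03, with 2 higher and 3 lower at an unadjusted p under 0.05, and 1 and 1 by DESeq2. Atf4, the factor whose translation PERK favours, was at 4048 and 5519 counts in the tumours and 936 and 990 in the normal tables (log2 fold change 1.43, SE 0.60, edgeR adjusted p = 0.213). Of the other sensors, given for their role, Ern1 was at 555 and 653 counts against 2063 and 2417 (-2.76, SE 0.51, adjusted p = 0.0546) and Eif2ak3 at 855 and 715 against 927 and 980 (-1.12, SE 0.56, adjusted p = 0.270). DESeq2 called Ern1 lower (adjusted p = 0.00115), as did edgeR with RLE scaling (0.0447), no filter (0.0213) and at least 10 CPM in a library (0.0372). With upper quartile scaling (edgeR adjusted p = 0.0634) and without scaling (0.122) Ern1 was not called. Ppp1r15b, a phosphatase subunit that opposes PERK, was at -1.62 and Mbtps1, the first protease to cut ATF6, at -0.56. Eif2ak3 and Mbtps1 turned to 0.24 and 0.81 without scaling.

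**Figure D4:**
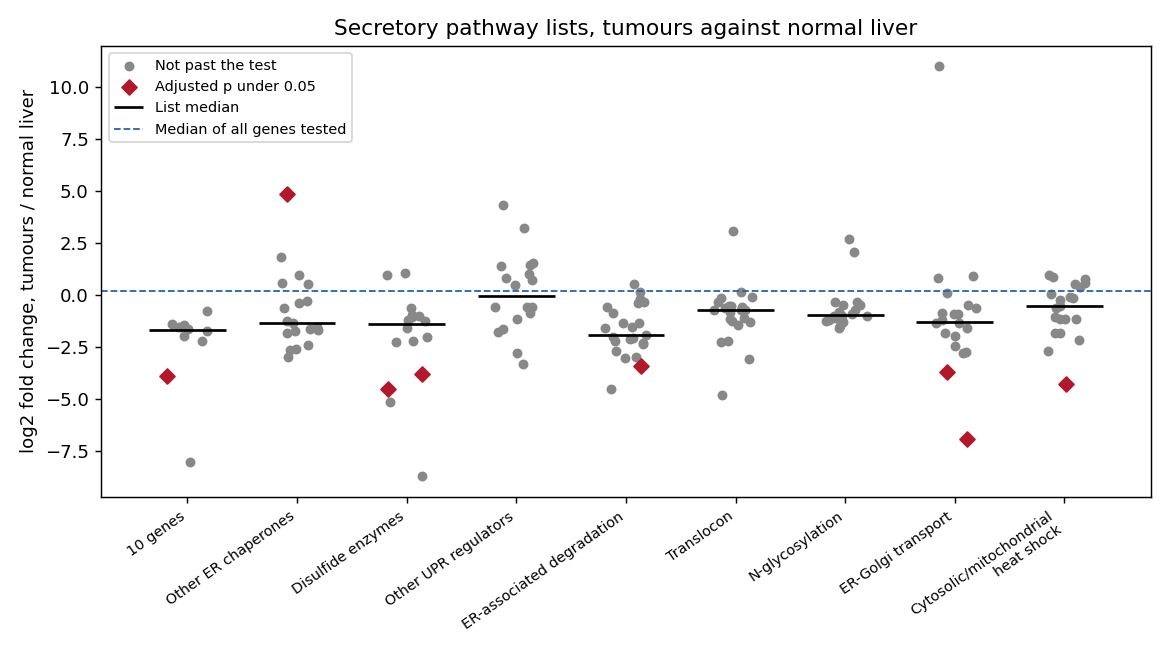
Log2 fold change (tumours over normal liver, TMM scaling) of every tested gene in the 10-gene group, the 7 other ER lists and a list of heat shock genes outside the ER; bars are list medians, diamonds are genes with an edgeR adjusted p under 0.05, and the dashed line is the median of all genes tested (0.19). List medians run from -1.91 for ER-associated degradation to -0.03 for the other regulators of the unfolded protein response (UPR).

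Genes held to be targets of CREB3L3 were also lower, with log2 fold changes from -14.20 to -3.83. Of 10 listed, 7 fell and 0 rose (0 at an unadjusted p under 0.05, and 0 by DESeq2), with a median log2 fold change of -11.18. Before adjustment 9 were lower at p under 0.05, beside 15.5% of all genes. DESeq2 called 8 lower, beside 1743 of all 14468 genes. Crp (-5.84), Fgf21 (-5.12) and Cidec (-3.83) did not pass the edgeR test and, with Apoc2 (-7.34), changed less than Creb3l3 itself. Apoa5, an activator of triglyceride breakdown in plasma, was at 2 and 4 counts in the tumours and 31186 and 32578 in the normal tables (-14.20, SE 1.05, edgeR adjusted p = 0.0182), and 18.4% of its 31-base words are shared. Pck1 and G6pc, of gluconeogenesis, were at 7 and 10, and 2 and 2, counts against 71765 and 77880, and 10885 and 12129. Apoa4, with 64.5% of its 31-base words shared, was at 0 and 1 counts against 4759 and 4941. These genes are also transcribed chiefly in hepatocytes and the gut, and the 10 hepatocyte markers had a median of -13.69 with 9 called lower, so a change tied to CREB3L3 and a general one of hepatocyte transcripts cannot be told apart.

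Among all 145 other tested genes of the ER lists and the group itself, Hsp90b1 had the pattern closest to that of Hspa5 over the 3 libraries of the fit, at a Euclidean distance of 0.078 between centred log2 levels, followed by Pdia3 (0.106) and Dnajb11 (0.139). For Xbp1 they were Aup1 (0.055), Sec63 (0.199) and Hyou1 (0.228). Nothing came near Creb3l3: its nearest, Sec16b, lay at a distance of 4.18, then Erp27 (4.54) and Derl3 (4.57). With 3 libraries such distances describe little more than the step between tumours and normal liver and the gap between the tumours.

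The genes with an exact ERSE were set beside those without. In the ER lists, 4 of 112 genes with a promoter entry held one: Dnajc3 (log2 fold change -2.95), Creld2 (-2.58), Syvn1 (-3.40) and Derl3 (-4.49), named after their values were seen, of which Syvn1 passed the test. Together with the 5 chaperone and isomerase genes, whose values lay between -1.95 for Pdia6 and -0.77 for Canx, they made up 9 of the 17 tested genes with an exact match in the whole table. Those 17 had a median of -1.73, and the 9501 tested genes with a promoter entry and no match a median of 0.19. Since 9 of the 17 come from the lists and the group, that contrast also holds the shift of these sets. Within the ER lists the median was -3.17 for the 4 genes with a match and -0.96 for 103 without. Within the 10 genes the order was the opposite, at -1.63 for 5 with a match and -3.03 for 4 without. The part of the element in these values was not tested. Of the 10 genes, the 2 lowest, Creb3l3 and Dnajb9, held no exact match in this window.

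Marker transcripts of further cell types also differed between tumours and normal liver. The 6 endothelial markers, led by Stab2, summed to 0.457 and 1.15 CPM in tumours 1 and 2 against 219 and 205 CPM. The 6 Kupffer cell markers summed to 12.2 and 0.0461 CPM against 108 and 98.5, with 4 at 0 in both tumours, Clec4f among them. The rest were Marco and Emr1, at 6.92 and 5.32 CPM in tumour 1. Marco was higher there than in the normal tables (1.24 and 1.54 CPM), and Emr1 was lower (11.5 and 10.2 CPM in the normal tables). The 8 stellate and fibroblast markers summed to 4.17 and 354 CPM against 214 and 186. They did not move together: 4 lay lower in both tumours than in both normal tables, among them Reln at 0 and 3 counts. Most of the sum of tumour 2 was Col1a1 (173 CPM), Col3a1 (101 CPM) and Pdgfrb (70.4 CPM). Plasma cells and acinar cells have a secretory load of their own, which comes with abundant ER chaperones. Sdc1, also made by epithelia, carried nearly all of the plasma cell sum (377 and 226 CPM against 453 and 392). Of the 7 plasma cell markers, 4 were at 0 in both tumours. The 6 acinar markers summed to 0 and 0.83 CPM against 130 and 118. Among them Pnlip was at 0 counts in both tumours and at 399 and 430 in the normal tables. Amy2a5 was at 0 counts in all 4 tables. Transcripts of the other acinar markers were thus counted in the normal tables and nearly absent from the tumours. The T cell markers summed to 0.515 and 0.553 CPM against 5.18 and 5.90. The part of these cell types in the differences was not tested.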

How the data were processed

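Bulk RNA sequencing was done on 4 mouse liver libraries made with TRIZOL and an Illumina TruSeq kit, per the labels' protocols. The deposited values are raw counts per gene symbol. TopHat2 2.0.10, HTSeq, Trimmomatic, FastQC, DESeq2 and mm9 are named, in no order, per the submitters' processing notes. Use of strand in counting is not given in the sources used here. Each table ended in 5 lines naming no gene, left out (no feature 13.6% to 31.5% of a table's total, not unique 30.7% to 51.5%).

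Tests used edgeR 4.0.16 in R 4.3.3 on 3 libraries (tumours 1 and 2, and the rounded mean of both normal tables): TMM, filterByExpr with a minimum count of 10, quasi-likelihood test, Benjamini-Hochberg adjusted p under 0.05, with 1 residual degree of freedom. The lone normal library is taken to vary like the tumours. SE is the log2 fold change over the root of F. CPM are TMM-scaled over all 4 tables; log2 ratios of 1 library to 1 used TMM over that pair and a prior count of 2. On simulated counts for this comparison (14119 genes), 1.6% of 4-fold, 26.5% of 16-fold and 75.8% of 64-fold changes were called. DESeq2 1.42.0, other scalings and filters, and each library left out were tried. Shared sequence is the share of a gene's 31-base words found in another GENCODE M21 gene.

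The 10 genes and all lists were chosen with earlier results of these data known. Genes named from other lists were, by rule, up to 4 called genes with the largest changes, or the 3 most abundant where none was called, and the most abundant marker of each cell type; others are named as chosen later or for their role.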

Additional observations from a re-analysis of the deposited data

How the results depend on the processing

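Of 90 recomputed and tested fold changes of the 10 genes, 78 kept their direction and side of the threshold, 10 passed it where the main value did not, 1 lost its call (Dnajb9 without scaling), and Canx alone turned, at 0.60 without scaling. Of 20 values without a test, from leaving out tumour 1 or 2, 4 moved by more than 1 SD of the tumours. The number of the 10 genes called lower, 1 in the main analysis, was 8 with both normal tables as separate libraries (tables that are not independent), 3 with DESeq2, 2 with no filter on low counts and 0 without scaling. All genes called higher (322) became 3058 and called lower (751) became 3157 with separate normal tables, 1666 and 1743 with DESeq2, 903 and 1383 with no filter, 635 and 472 without scaling, and 498 called higher with at least 10 CPM in a library. The cause was not tested. Of the other genes named, Eif2ak3 (0.24), Ganab (0.38), Mbtps1 (0.81), Rpn2 (0.39), Sdc1 (0.90), Sec61a1 (0.088), Ssr3 (0.78) and Uggt1 (0.10) turned without scaling, and all 8 were uncalled. Calls of Dnajb9, Hspa1b, Qsox1, Sec24a and Syvn1 were lost there. Of 329 recomputed values of the other named genes, 13 passed the threshold where the main value did not, among them Ern1 with DESeq2. Genes of the 10 differing over 2-fold between the tumours numbered 2 with a minimum of 1 CPM, by the addition of Creb3l3. Leaving out tumour 1 or 2 leaves 1 library against 1 and no test: Dnajb9 was then at -4.04 and -3.60, and Pdia6 at -1.30 and -2.92. No paired analysis was possible because the labels link no tumour to a normal liver of the same animal. With 1 residual degree of freedom, few changes under 16-fold could be called, so genes that did not pass are not shown to be unchanged.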

Other observations

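Heat shock genes of the cytosol and mitochondria, 21 in a list set beside the ER chaperones, had a median log2 fold change of -0.52 in the tumours. At an unadjusted p under 0.05, 3 of them were lower, beside 15.5% of all genes. DESeq2 called 3 lower, beside 1743 of all 14468 genes. After adjustment edgeR called 1 lower, beside 5.19% of all genes tested. It called 0 higher, beside 2.23% of all genes (0 at an unadjusted p under 0.05, and 0 by DESeq2). The one that fell was Hspa1b, an inducible HSP70 gene, at 102 and 148 counts in tumours 1 and 2 against 1427 and 1166 in the normal tables labelled double heterozygous and wild type (log2 fold change -4.26, SE 0.54, edgeR adjusted p = 0.0295, and 0.0593 without scaling). It shares 68.1% of its 31-base words with other genes. Hspa8, the constitutive HSP70 gene, and Hsp90aa1, chosen after their values were seen, differed between the normal tables (1215 against 8436 and 1315 against 4595 counts). They share 44.8% and 51.5% of their words, and the part of shared sequence in this difference was not tested.

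Kdelr3, a receptor that returns escaped chaperones to the ER, chosen after its values were seen, had 121 and 525 counts in the tumours and 0 in both normal tables (edgeR adjusted p = 0.0633). Herpud1, of ER-associated degradation, chosen likewise, had 6481 counts in tumour 1 and 1318 in tumour 2 against 18000 and 19006 in the normal tables, a log2 ratio of 2.63 between the tumours.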
